A study of Mus musculus with 15 samples.

Results

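Sox11 and Pcdha3 are genes known from the developing nervous system, and 1 probe of each could be named on the arrays of this series. The members were the probes whose RefSeq identifier belongs to either gene, which gave 2 of 33012 gene probes, NM_009234.3 for Sox11 and NM_138662.1 for Pcdha3. They stand among 311 genes that could be given a name. The genes were chosen by their log2 signal at week 19 against week 10 in these same data, where both were lower, so their levels at those ages are described here without a test.

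RNA from whole mounts of BALB-neuT mammary glands was hybridised to single-colour Applied Biosystems AB1700 arrays, with 1 array for each of 5 mice aged 10 weeks, 2 aged 15 weeks, 4 aged 19 weeks and 4 aged 22 weeks. The BALB-neuT strain is transgenic for the activated rat HER-2/neu oncogene under a mouse mammary tumour virus promoter, and its mammary glands develop carcinomas with age. All 15 mice carry the transgene, so the ageing of a normal gland cannot be told apart from tumour progression. A whole mount holds epithelium, fat, stroma and other tissue, and in such bulk RNA fewer cells of a type and less RNA per cell cannot be told apart.

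Sox11 encodes a transcription factor with an HMG box, of the same SOX group as Sox4 and Sox12. It is known for promoting the differentiation of neurons and is expressed in many embryonic tissues where epithelium meets mesenchyme, while adult tissues carry little of it. Pcdha3 encodes a clustered protocadherin, a cell surface adhesion protein of neurons. The alpha protocadherin genes each join an own first exon to constant exons that they share. The exon that the Pcdha3 probe reads is not known here, so signal from other alpha members cannot be told apart from Pcdha3.

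The promoter of Sox11 is shown because, of the 2 genes, only Sox11 had late values that all lay below every week 15 value. This does not set Sox11 apart, since 17.6% of the 20867 probes tested had every week 22 value below every week 15 value. The promoter is the stretch of 250 bases before the start of the gene on mouse chromosome 12, chr12:27342719-27342968 on the minus strand, from RefSeq and build GRCm38.p6. Capitals mark matches on either strand to CCAAT or GGGCGG.
Sox11: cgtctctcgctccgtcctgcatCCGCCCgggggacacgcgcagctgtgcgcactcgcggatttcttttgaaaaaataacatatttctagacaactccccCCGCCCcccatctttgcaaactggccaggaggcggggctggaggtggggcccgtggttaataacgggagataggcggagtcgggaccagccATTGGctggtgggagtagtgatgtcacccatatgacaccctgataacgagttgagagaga
The stretch held 1 match to CCAAT, which begins 60 bases before the start and is present in 33.8% of 32851 mouse promoter windows of this length. It held 2 matches to GGGCGG, at 228 and 151 bases before the start, a motif of 32.7% of the windows. TATAAA and CACGTG, found in 12.4% and 6.0% of the windows, had no match here. The motifs do not overlap each other, and a match describes the letters only.

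The share of detected probes was similar between arrays, while their overall brightness was not. Between 46.1% and 53.9% of the probes on an array reached a signal-to-noise ratio of 3, the level called detected here, and the median signal ranged from 650.2 to 1626. Precision is limited by the number of mice, most of all at week 15. Of the lists that describe the tissue, 4 milk protein genes, 6 leukocyte genes, 9 hair and skin genes and 1 fat gene could be named, and all but the hair gene Krtap3-2 were kept for testing. No luminal, basal, muscle, glial or cell cycle marker could be named, so the epithelial content was not checked directly.

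Sox11 was detected on most early arrays and on few late ones. It passed the detection level on 4 of 5 arrays at week 10, on both at week 15, on 1 of 4 at week 19 and on 1 of 4 at week 22. The counts at weeks 10 and 19 come from the arrays that chose the gene, and the counts depend on the level. At a signal-to-noise ratio of 1 or more Sox11 was detected on 5, 2, 3 and 3 arrays at weeks 10, 15, 19 and 22. Its deposited signal at week 10 was 502, 1784, 1809, 1308 and 2169 in replicates 1 to 5. At week 15 it was 1294 and 2296. At week 19 it was 172, 854, 669 and 392, and at week 22 it was 444, 768, 1115 and 621. Week 10 replicate 1 was therefore the low one of the early arrays, within the range of the late arrays, and the other 6 early arrays all lay above the 8 late ones.

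The signal of Sox11 was dim, so the error of a single array is large. The scanner's SD for the brightest week 19 array, replicate 2, was 169 on a signal of 854, a signal-to-noise ratio of 5.06. On week 22 replicate 3, the late array just inside the detection level, the ratio was 3.27, and on week 22 replicate 2, just outside it, the ratio was 2.47. In week 19 replicate 1 and week 22 replicate 4 the ratios were 0.93 and 0.06, and the deposited signal there equals its own SD and marks a floor rather than a level.

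**Figure D1:**
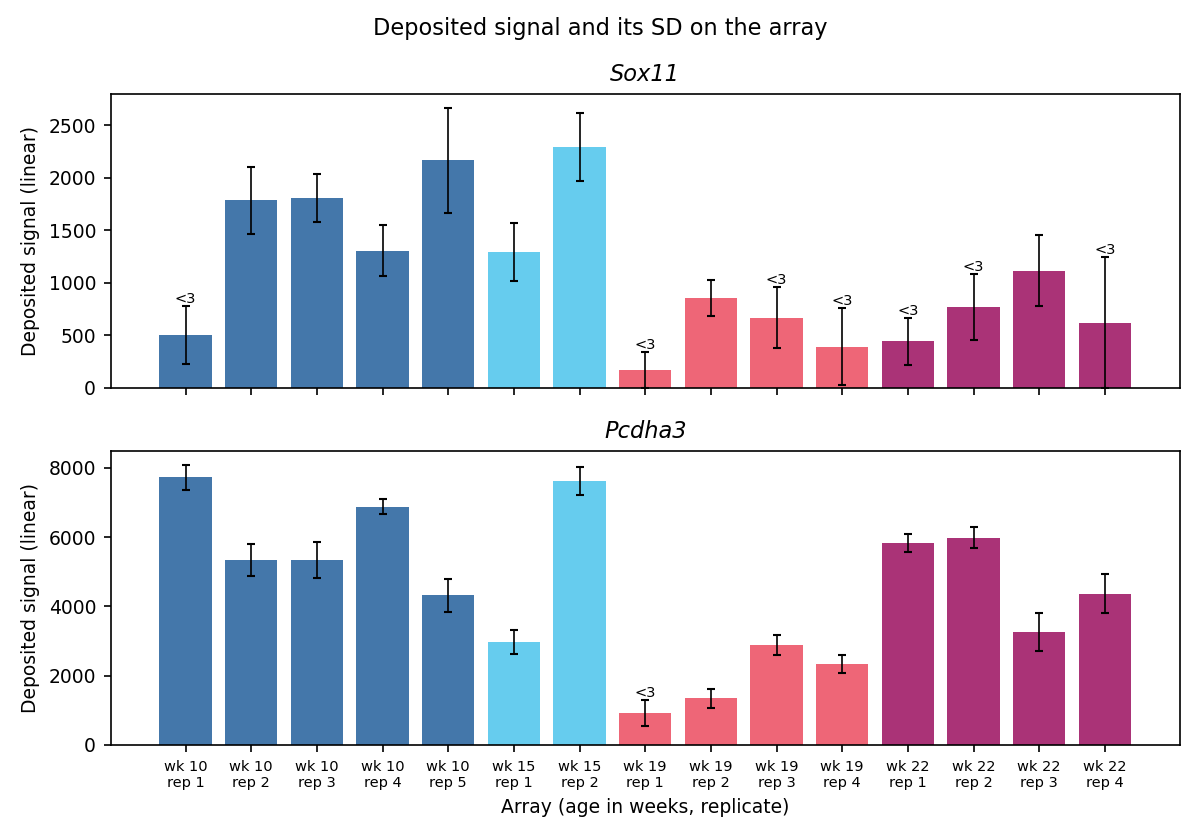
Deposited linear signal of Sox11 and Pcdha3 on each of the 15 arrays, by age in weeks and replicate. Error bars are the scanner's SD of the signal on that array, and <3 marks a signal-to-noise ratio under 3. Sox11 carries that mark on 7 arrays, 6 of them of weeks 19 and 22, and Pcdha3 on week 19 replicate 1.

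Pcdha3 was brighter over its own noise and stayed detected at nearly every age. It passed on 5 of 5 arrays at week 10, 2 of 2 at week 15, 3 of 4 at week 19 and 4 of 4 at week 22. Its deposited signal at week 10 was 7726, 5335, 5331, 6879 and 4315 in replicates 1 to 5, and at week 15 it was 2965 and 7631. At week 19 it was 926, 1345, 2876 and 2340, and at week 22 it was 5840, 5983, 3260 and 4369. All 4 week 19 arrays lay below every other array on this linear scale, which is not normalized for brightness. Nothing is read from this, since week 19 values helped choose the gene and the share of probes alike in this was not counted. After normalization week 19 replicate 4, at 11.40, exceeded week 22 replicate 4, at 11.30. The array just outside the detection level was week 19 replicate 1, with a ratio of 2.41, and the dimmest array inside it was week 19 replicate 2, with a ratio of 4.97.

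After quantile normalization between arrays, which removes differences in overall brightness, the log2 signal of Sox11 averaged 10.43 ± 0.81 at week 10 (SD, n = 5), 11.23 ± 0.13 at week 15 (n = 2), 8.73 ± 0.78 at week 19 (n = 4) and 9.33 ± 0.56 at week 22 (n = 4). The means were higher at weeks 15 and 10 than at weeks 22 and 19. No order is read between the late ages, because 6 of their 8 values were below the detection level. Values of weeks 10 and 22 overlapped, since week 10 replicate 1 stood at 9.03 within the week 22 range of 8.72 to 10.00. Weeks 22 and 19 overlapped in part, with week 19 from 7.69 to 9.56, and week 15 lay above all other arrays. The difference between the early ages was 0.80 ± 0.55 for week 15 minus week 10 (SE of the limma fit, here and for the differences that follow), close to the spread between mice.

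Pcdha3 averaged 12.59 ± 0.49 at week 10 (SD, n = 5), 12.69 ± 0.47 at week 15 (n = 2), 10.66 ± 0.61 at week 19 (n = 4) and 11.97 ± 0.67 at week 22 (n = 4). The order of its means from high to low was week 15, week 10, week 22 and week 19. The early ages differed by 0.10 ± 0.46, week 15 minus week 10, less than the spread between mice. At week 22 the values were 12.73, 12.33, 11.52 and 11.30, so replicates 1 and 2 lay within the early range and replicates 3 and 4 below it. At week 19 they were 10.15, 10.17, 10.93 and 11.40, and only replicate 4 exceeded the lowest week 22 value.

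**Figure D2:**
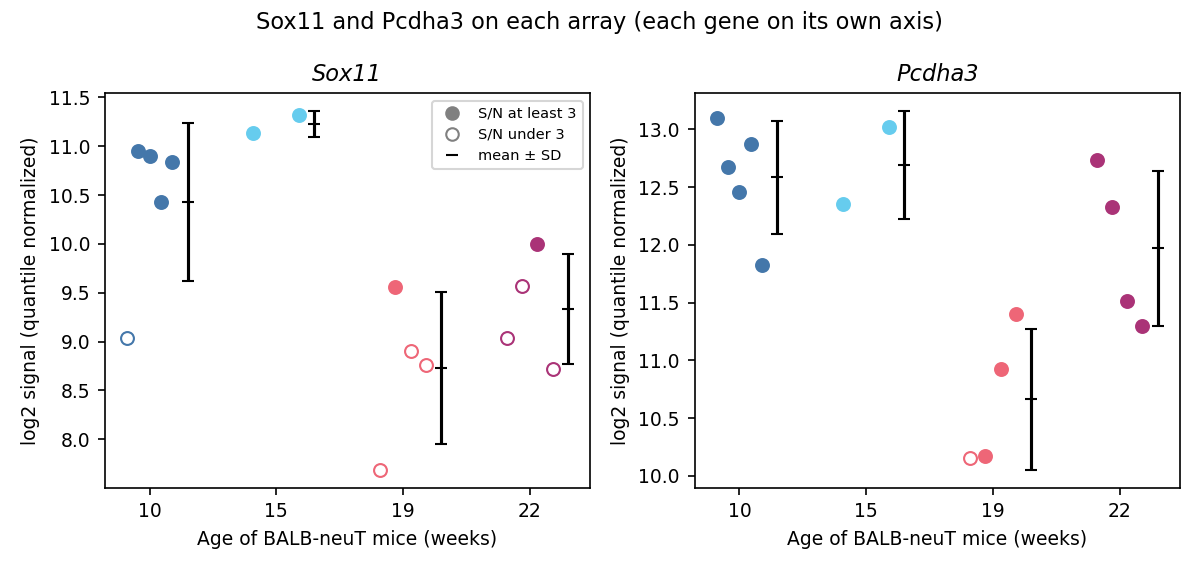
Quantile-normalized log2 signal of Sox11 and Pcdha3 on each array by age in weeks, each gene on its own axis. Filled points reach a signal-to-noise ratio of 3, open points do not, and the bar beside each age is the mean ± SD. Pcdha3 is lowest at week 19 and higher at week 22, while Sox11 is low at both late ages.

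The difference that picked the genes, week 19 minus week 10, was -1.70 ± 0.44 for Sox11, a 3.25-fold lower signal, and -1.92 ± 0.37 for Pcdha3, a 3.79-fold lower signal. Values of Pcdha3 did not overlap between these ages, as was the case in that direction for 7.7% of the probes tested, and nothing is read from this since these values chose the gene. Those of Sox11 overlapped through week 10 replicate 1. For Sox11 the size of the fold is uncertain, because 3 of the 4 week 19 values were below the detection level. With values below that level set to a common floor per array the difference of Sox11 was -0.73.

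Week 22 minus week 10 uses the same week 10 arrays, and its values are given side by side with no test. The difference was -1.10 ± 0.44 for Sox11 and -0.62 ± 0.37 for Pcdha3, the second a 1.53-fold lower signal. With values below the detection level at the floor, that of Sox11 was -0.67, so its size rests on undetected values. Between the late ages the mean of Pcdha3 lay 2.47-fold higher at week 22 than at week 19, a difference of 1.31 ± 0.39. Low week 19 values helped choose the gene, so nothing is read from the higher week 22. For Sox11 the late ages differed by 0.60 ± 0.46 without the floor and by 0.06 ± 0.19 with it, so no difference between them was measurable.

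Week 22 against week 15 was the comparison between arrays that had no part in picking the genes. Sox11 was kept for testing only through weeks 10 and 15, where it was high. Its test, and the share without overlap among the probes kept, are thus not free of that filter. Sox11 stood at 9.04, 9.57, 10.00 and 8.72 on the week 22 arrays, against 11.13 and 11.32 on the week 15 arrays. Every week 22 value was lower than both week 15 values, a lack of overlap in that direction that 17.6% of the 20867 probes tested also showed. The difference was -1.90 ± 0.40, with a 95% interval of -2.86 to -0.93. Its size rests on undetected values, since 3 of the 4 week 22 values were below the detection level. With those at the floor it was -1.24 (limma adjusted p = 0.0227), where values without spread of their own lower the error by construction. Without the floor, the difference did not pass after adjustment over all probes kept (limma, Benjamini-Hochberg adjusted p = 0.0676). With no filter on dim probes the limma adjusted p was 0.106. The exact permutation test gave p = 0.133 for Sox11 (two-sided, taken as 2 times the smaller tail). With the 15 splits of 4 arrays against 2, no smaller p is possible under this definition.

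Pcdha3 stood at 11.97 ± 0.67 at week 22 (SD, n = 4) and at 12.69 ± 0.47 at week 15 (n = 2), and the values overlapped. The difference was -0.72 ± 0.48, with a 95% interval of -1.89 to 0.45, and did not pass (limma adjusted p = 0.414, exact permutation p = 0.267). The interval includes both no difference and a decrease larger than the one of the week 22 minus week 10 comparison, so it does not show that the ages are alike. Over all probes 0.355% were called lower and 2.42% higher at week 22 against week 15, and neither Sox11 nor Pcdha3 was among the 578 called. That count was 0 when any array but week 15 replicate 2 was left out, and 898 without that array.

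The headers of the array data hold 2 dates, taken here as scan days. The array serial numbers were split here into 4 runs at the gaps between them. Within scan day 1 the difference of Sox11 between week 22 and week 15 was -2.10, with 1 array each, and within scan day 2 it was -1.89, with 3 arrays against 1. Within the serial run numbered 4 it was -1.96, with 2 arrays against 1, and run 2 held the same pair of arrays as scan day 1. The run 4 arrays of these ages were all of scan day 2, so the runs add no further arrays. The difference of Sox11 was thus close in size on both days, each with 1 week 15 array. For Pcdha3 the same comparisons gave 0.38 within scan day 1, -1.30 within scan day 2 and -1.61 within run 4. Its direction turned within day 1, where each age has a single array.

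For week 19 minus week 10, Sox11 differed by -2.64 and -1.76 within scan days 1 and 2, and Pcdha3 by -2.63 and -0.99. Within runs 3 and 4 Sox11 differed by -1.47 and -1.40, and Pcdha3 by -1.56 and -1.82. Both genes were lower at week 19 in each of these batches, but nothing is read from this, since these same values chose the genes. Day 1 held 1 week 19 array against 4 of week 10, and day 2 held 3 against 1. In run 4 every week 10 array fell on day 1, and every week 19 and week 22 array on day 2. Age and day cannot be told apart there. For week 22 minus week 10 the values within days 1 and 2 were -1.29 and -1.41 for Sox11 and -0.05 and -0.11 for Pcdha3. Within runs 3 and 4 they were -1.06 and -0.93 for Sox11 and -0.02 and -1.34 for Pcdha3. Sox11 was lower at week 22 in each batch by a like amount, while a lower Pcdha3 was seen mainly within run 4. Of the week 22 arrays 1 of 4, and of the week 10 arrays 4 of 5, carry the date of day 1, so day and age are partly confounded.

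Hair genes differed between the week 10 arrays. Krt25, a keratin of the inner root sheath of hair, was at 18.74, 17.62 and 15.33 log2 signal in replicates 1, 2 and 4 of week 10, while replicates 3 and 5, at 8.32 and 8.06, did not exceed background. It was also above background on 3 of the 4 week 19 arrays, at 9.87, 10.46 and 10.30, and on no array of weeks 15 and 22. The mean log2 signal over the 9 hair and skin genes ranged from 8.78 to 15.77 at week 10, against 8.95 to 9.86 at week 15, 8.82 to 9.85 at week 19 and 8.68 to 9.50 at week 22. Those 3 arrays also had the highest Pcdha3 values of week 10, at 13.10, 12.67 and 12.87, against 12.46 and 11.82 in replicates 3 and 5. Sox11 showed no such order, with its lowest value of week 10 in replicate 1. With the 3 arrays removed, a setting added once the values were known, week 19 minus week 10 was -2.14 for Sox11 and -1.48 for Pcdha3. Week 22 minus week 10 was then -1.54 for Sox11 and -0.17 for Pcdha3. The part of hair tissue in the Pcdha3 values was not tested.

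Other tissue markers also moved with age. The fat gene Aoc3 ranged from 19.30 to 20.45 log2 signal at week 10, 20.22 to 20.26 at week 15, 17.12 to 18.94 at week 19 and 17.43 to 19.14 at week 22. The mean over the 6 leukocyte genes ranged from 12.73 to 13.72 at week 10, 13.48 to 15.31 at week 15, 16.17 to 16.48 at week 19 and 14.30 to 15.74 at week 22. The mean over the 4 milk protein genes ranged from 9.28 to 10.39 at week 10, 9.22 to 10.16 at week 15, 11.22 to 14.61 at week 19 and 13.12 to 15.39 at week 22. The milk protein list ranged higher at both late ages than at the early ones. Within the leukocyte list the chemokine genes Ccl19, Ccl21a and Ccl21b, made by lymphoid stroma, had means of 13.56, 15.57 and 16.04 at week 22, against 16.30, 18.08 and 18.59 at week 19. Tnfsf13 stood at 15.17 and Lst1 at 14.02 at both late ages, and Bcl2a1b at 15.71 at week 22 and 15.95 at week 19. The list mean was thus highest at week 19 through the chemokines, and the fat gene ranged lower at weeks 19 and 22 than at the early ages. The part of these shifts in the values of Sox11 and Pcdha3 was not tested.

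The 2 genes were also set against each other. Over the 15 arrays their log2 signals correlated at Pearson r = 0.582 and Spearman rho = 0.575, a description only, since both genes were picked for the same difference between ages and some Sox11 values lie at the floor. With the mean of each age removed, r was -0.186 over the same 15 arrays. In week 10 replicate 1 Pcdha3 had its highest value of all arrays, 13.10, and Sox11 its lowest of the early arrays, 9.03. At week 22 the array with the highest Sox11, replicate 3 at 10.00, had Pcdha3 at 11.52, while replicate 1, with Pcdha3 at 12.73, had Sox11 at 9.04.

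**Figure D3:**
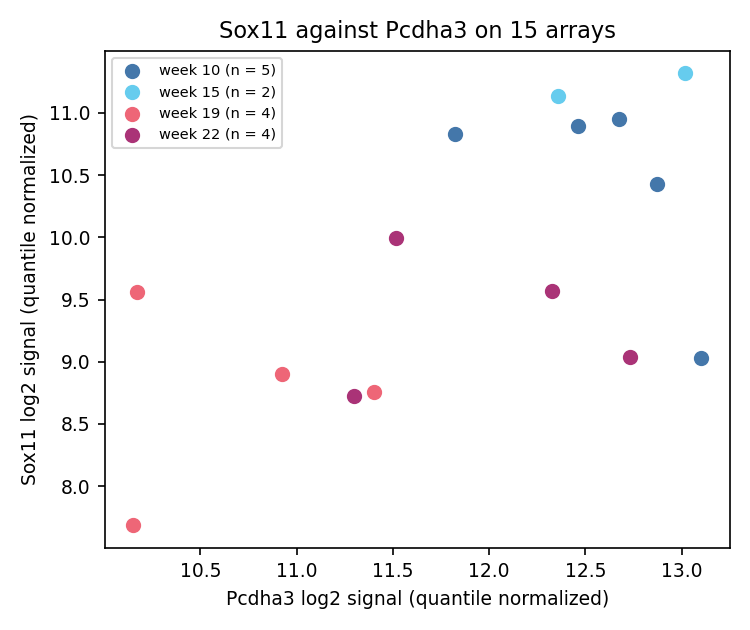
Log2 signal of Sox11 against that of Pcdha3 on each of the 15 arrays, coloured by age. The week 19 arrays lie at the low end of Pcdha3 and in the lower part of Sox11, and the week 15 arrays at the high end of Sox11. Points of 1 age show no common slope.

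The named genes whose log2 signal followed Sox11 most closely over the 15 arrays were Fgf21, a metabolic hormone gene (r = 0.819), Mprip, which encodes a myosin phosphatase partner (r = 0.817), the RNA helicase gene Ddx28 (r = 0.772), Dhrs7b (r = 0.759) and Mapk1ip1 (r = 0.752). Fgf21 was itself detected on only 4 of the 15 arrays, and the other 4 genes on all 15. With the age means removed the correlation with Sox11 was 0.803 for Fgf21, 0.564 for Mprip, 0.141 for Ddx28, -0.038 for Dhrs7b and 0.227 for Mapk1ip1. For the last 3 genes the likeness thus lay mainly in the age means. Pcdha3 ranked number 25 in likeness to Sox11 among the other named genes kept for testing.

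Pcdha3 was followed most closely by Akap7, an anchor gene for protein kinase A (r = 0.770), Dhrs7b (r = 0.719), the sulfotransferase gene Sult5a1 (r = 0.716), Pemt, an enzyme gene of phosphatidylcholine synthesis (r = 0.713), and Rasd1, a small GTPase gene (r = 0.712). All 5 were detected on all 15 arrays. With the age means removed these correlations were between 0.294 and 0.397. Akap7, ranked by its likeness to Pcdha3 on these same arrays, stood at 12.25, 12.40, 11.17 and 12.02 log2 signal at weeks 10, 15, 19 and 22. Sox11 ranked number 19 in likeness to Pcdha3. Dhrs7b was the only gene that stood among the 5 closest of both.

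Of other genes from the same families few could be read. Sox3, a SOX gene of neural progenitors, was below the detection level on all 15 arrays, and Sox15 passed on 1 array, at week 22. The protocadherin gene Pcdhb1, of the neighbouring beta cluster, was not detected on any of the 15 arrays. Snap25, a synaptic vesicle fusion gene that marks neurons, was detected on 2 arrays of week 10 and on none of the later ages. None of these 4 genes had enough detected arrays to be tested. No glial or Schwann cell marker could be named, so nerve tissue in the whole mounts was not checked beyond Snap25.

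A list of neural development genes named 5 more genes, of which 4 were kept for testing. In the fit over all 15 arrays none of them passed at week 15 or week 19 against week 10 in either direction (limma). Of all probes 0.0335% and 12.5% were called there. At an unadjusted p under 0.05 (limma) stood 0 and 2 of the 4 genes, against 2413 and 5879 of the 20867 probes kept. At week 22 against week 10, 1 of 4 was lower and 0 higher, where 4.18% of all probes were called lower and 7.78% higher. The median log2 difference of the 4 was -0.06, -0.46 and -0.80 at weeks 15, 19 and 22 against week 10, and that of all probes 0.06, -0.02 and -0.01. These 3 comparisons share the week 10 arrays.

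The gene that fell was Ndn, an imprinted growth suppressor gene of neurons and preadipocytes. It averaged 11.23 ± 0.91 on the 4 week 22 arrays and 12.65 ± 0.31 on the 5 week 10 arrays (SD), which differ by -1.42 ± 0.36 (limma adjusted p = 0.0223). A block for scan day ended the call (-1.31, adjusted p = 0.0707), as it was without week 22 replicate 3 (-1.17, adjusted p = 0.0735), without week 22 replicate 4 (-1.14, adjusted p = 0.0823) and without the 3 week 10 arrays high in Krt25 (-1.66, adjusted p = 0.0662). At week 19 it stood at 11.72 ± 0.38 (n = 4), a difference of -0.93 ± 0.36 from week 10 that did not pass (adjusted p = 0.107).

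Mab21l1, a gene of eye and neural development, averaged 9.37 ± 0.30 at week 19 (n = 4) and 11.06 ± 0.82 at week 10 (SD, n = 5). The difference of -1.69 ± 0.62 was close in size to that of Sox11 and did not pass (limma adjusted p = 0.0911). It was detected on 4 of 5 arrays at week 10 and on 1 of 4 at week 19. The LIM homeobox gene Lhx2 differed by 0.01 ± 0.71 and the axon guidance gene Ntn1 by 0.29 ± 0.27 at week 19 against week 10 (adjusted p = 0.997 and 0.534). Lhx2 was detected on 4 of the 15 arrays and Ntn1 on all 15. Magel2, an imprinted neighbour of Ndn, was detected on 1 array of week 10 and was not tested.

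**Figure D4:**
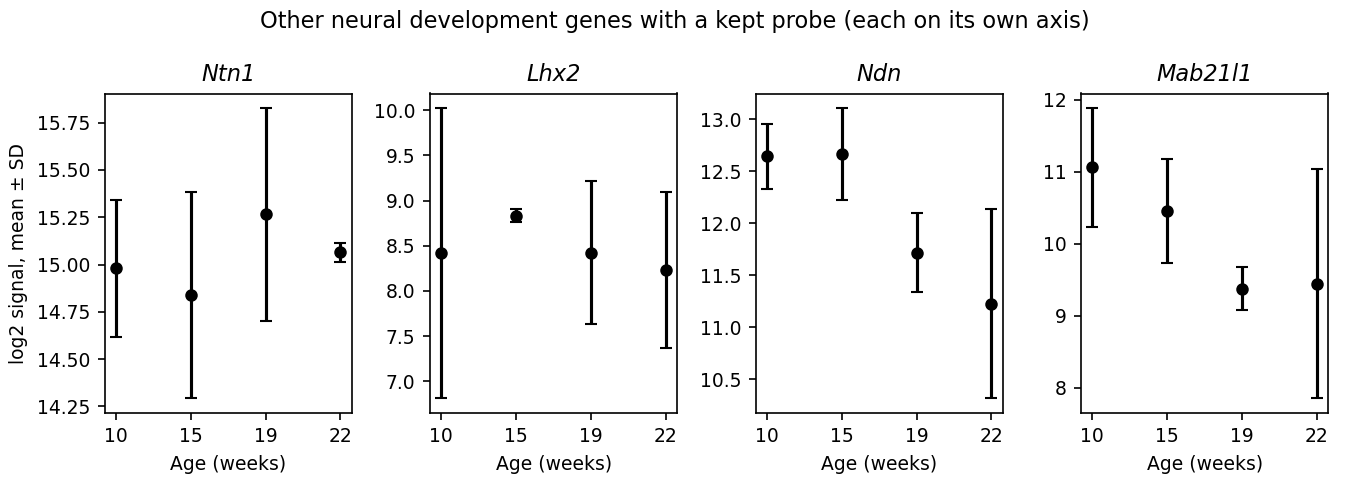
Mean ± SD of the quantile-normalized log2 signal of the 4 other neural development genes kept for testing, by age in weeks (n = 5, 2, 4 and 4), each gene on its own axis. Ndn and Mab21l1 have lower means at weeks 19 and 22 than at week 10, while Ntn1 and Lhx2 stay within their spread.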

How the data were processed

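Digoxigenin-labelled cRNA was hybridised and read by chemiluminescence, with images analysed as the manufacturer prescribes, per the labels' protocols. The deposited array files hold for each probe a linear signal intensity, the SD of that intensity, a score for signal over noise and a flag score, per the file headers. The background treatment was stated in no header or label. Where the signal-to-noise ratio was under 1, the deposited intensity equals its SD. The authors' value table holds log2 values with a median of 10.03 on every array, ranked as the scanner signals (Spearman 1.0). Its offset is unknown, and it served as an alternative.

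Signals of 33012 gene probes, without 303 control spots, were quantile normalized between 15 arrays on the log2 scale. Sox11 and Pcdha3 counted as detected from a signal-to-noise ratio of 3. For testing, a probe had to reach 3 with a flag under 5000 on 50% or more of the arrays of some age, which kept 20867 probes and 207 named genes. Tests used limma 3.58.1 under R 4.3.3 (moderated two-sided tests from lmFit and eBayes, Benjamini-Hochberg over all kept probes, threshold 0.05), on the 6 arrays of weeks 22 and 15, or over all 15 arrays with age as 4 levels for other genes. The limma step was tested on simulated data. Exact permutation tests used SciPy 1.17.1. Groups came from the ages in the labels. Replicate numbers follow deposit order and pair nothing. Week 10 replicate 4 has no gene column and took it from its probe numbers.

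Names came from RefSeq accessions, or gene synonyms, in the GRCm38.p6 gene table, which named 317 probes of 311 genes and left 32695 unnamed. The table served for names and chromosomes only. The genes described, the lists and the comparisons were chosen with earlier results of these data known. Besides Sox11 and Pcdha3, the rule named the 5 closest genes by Pearson r, the measured SOX and cadherin genes, and up to 4 genes of other lists by p. Sox11 and Pcdha3 were left out of the list counts. Genes of other lists, other than Krt25, Aoc3 and the leukocyte genes, are given only as list means. Magel2 and Snap25 are given because few neural genes could be read. Alternatives were the scaling, a floor, array weights, scan day and array series as blocks, the filter, the detection level and leaving out each array.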

Additional observations from a re-analysis of the deposited data

Results flagged for a closer look

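Of 69 groups of 4 or 5 arrays of the 23 genes checked, 7 held an array far from the others of its age, where chance alone marks about 1 in 20 groups. Sox11 in week 10 replicate 1 was at 9.03 log2 signal, below the detection level, against 10.43 to 10.95 in the other 4 mice of that age. Without it, week 19 minus week 10 was -2.05 for Sox11 and week 15 minus week 10 was 0.45.

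Ddx28 was low in the same array, at 14.60 against 14.87 to 14.95. Ndn was high in week 10 replicate 3, at 13.18 against 12.38 to 12.60, and so was Akap7, at 12.99 against 11.94 to 12.18. Rasd1 was low in week 10 replicate 2, at 16.53 against 17.50 to 17.83. Mapk1ip1 was low in week 19 replicate 3, at 13.83 against 14.39 to 14.49. Sox15 was low in week 22 replicate 4, at 10.32 and not detected, against 10.96 to 11.07.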

How the results depend on the processing

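Sox11 kept its lower value at week 22 against week 15 under all alternatives run, and passed under 1 of them: with values below the detection level at a floor the difference was -1.24 (adjusted p = 0.0227), where late values without spread of their own lower the error by construction. Its adjusted p ranged from 0.0227 to 0.168 over these alternatives. The same floor moved its week 19 minus week 10 difference to -0.73. Leaving out 1 array gave -2.12 to -1.69 for Sox11 and -1.05 to -0.39 for Pcdha3 at week 22 against week 15, none of them past the threshold. Probes called there numbered 98 without the filter, 1828 in 1 fit over all 15 arrays and 0 to 898 with 1 array left out. At a signal-to-noise ratio of 1, Sox11 was detected on 3 arrays at week 19 and 3 at week 22, and at a ratio of 5 on 1 at week 15 and 0 at week 22. With scan day as a block, 0 neural genes were lower at week 22 against week 10. For week 15 minus week 10, Pcdha3 differed by less than its SE, and its sign turned with array series as a block (-0.09) and without week 10 replicate 5 or week 15 replicate 2 (-0.09 and -0.23). Its week 22 minus week 10 difference ranged from -0.96 with array weights to -0.17 without the 3 week 10 arrays high in Krt25. No paired analysis was made, since each array was of a different mouse and the labels give no pairing. Dim signal limits the late values of Sox11, of which 6 of 8 were below the detection level.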
